A study of Mus musculus with 24 samples.

Results

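miR-223, miR-142-3p, miR-142-5p and miR-150 are microRNAs (miRNAs) made mainly by blood cells, and 4 of the 655 probes on the array measured them. They were chosen by exact probe name, with the species prefix removed, as markers of leukocytes in the vessel wall. RNA was flushed with Qiazol, a phenol-based lysis reagent, from the intima (inner lining) of the carotid, and the mice were C57Bl6 males, 6 to 8 weeks old. Every mouse had undergone partial ligation, in which 1 caudal branch of the left carotid is kept open and the rest are tied, so that flow in this vessel turns low and oscillatory. The left artery was set against the right artery at 12 h and at 48 h after surgery, in 4 groups of 6 Illumina bead arrays. The 12 h arrays were so alike in pairs that each pair was counted as repeats of 1 sample, although the labels do not call them so, which leaves 3 samples per artery at 12 h and 6 at 48 h. No sham-operated mice were among the groups, so that effects of flow, of surgery and of body side cannot be told apart.

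A miRNA guides the Argonaute protein to messenger RNAs that pair with its seed, the run of bases near its 5′ end, and lowers their output. Endothelial cells are not known as a main source of these 4 miRNAs, and their level in a vessel is often read as a measure of blood cells that adhere to it, enter it or remain in the lumen. miR-223 is the best-known myeloid miRNA: it is abundant in neutrophils, monocytes and platelets, and in mice it restrains neutrophil production and activation. Both arms of the miR-142 hairpin are made across nearly all lineages of blood cells. miR-150 is abundant in mature B, T and natural killer cells, where in mice it lowers the transcription factor Myb. In bulk RNA of this kind, fewer cells of a type and less RNA per cell cannot be told apart.

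The mature sequences are shown because their seeds decide what each miRNA can bind. They are from RefSeq (mouse assembly GRCm38.p6), written 5′ to 3′ with bases 2 to 8, the seed, in capitals, and 3 of the 4 names matched an entry.
miR-223: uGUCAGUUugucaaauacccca
miR-142-3p: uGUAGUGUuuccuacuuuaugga
miR-142-5p: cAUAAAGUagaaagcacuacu
The 3 seeds differ from one another, so that the arms of the miR-142 hairpin address different sets of messages, and 0 other probes of the array shared the seed of any of the 4 miRNAs. miR-223 lies at chrX:96242884-96242905 (plus strand), and its hairpin gene Mir223 lies within the long non-coding RNA gene F630028O10Rik. miR-142-5p lies at chr11:87756867-87756887 and miR-142-3p at chr11:87756903-87756925, both on the plus strand. The hairpin is shown because both are cut from it, with the 5p arm and then the 3p arm in capitals.
miR-142 hairpin: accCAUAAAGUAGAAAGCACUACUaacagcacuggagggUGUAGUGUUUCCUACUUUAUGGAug
This hairpin spans 64 bases at chr11:87756864-87756927, and Mir142b overlaps it on the other strand. Mir150 lies at chr7:45121757-45121821, where RefSeq annotates no overlapping gene. The probes cover bases 1 to 20 of miR-223, 1 to 21 of miR-142-3p, 1 to 20 of miR-142-5p and 1 to 18 of miR-150, each counted from the 5′ end.

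Levels are given as raw average bead signal per array and as log2 signal after background correction and quantile normalization within a time point. A probe was called detected on an array where its detection p was under 0.05. Each array detected between 335 and 431 of 655 probes, with the lowest numbers on 3 right arrays of 48 h, 335 on array 4, 336 on array 1 and 356 on array 2. By mean rank correlation over all probes, right sample 1 at 12 h and right samples 3 and 5 at 48 h lay nearer to the left samples of their time than to the other right samples. All were kept under their labels. Without right samples 3 and 5 the 48 h left-right difference of miR-223 was 2.39 on the log2 scale (limma adjusted p = 0.0796) and that of miR-150 was 1.33 (adjusted p = 0.564), against 1.95 and 0.51 with all samples. Without right sample 1 at 12 h that of miR-223 was 0.49 (adjusted p = 0.447), against 0.70. miR-126-3p and miR-126-5p, which mark endothelium, were detected on all 24 arrays. miR-143 and miR-145, which mark smooth muscle, and the erythroid miR-451 and miR-486 were detected on all 24 arrays too, so miRNAs of other wall cells and of red cells were also measured in the flushed RNA.

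Of the 4 leukocyte miRNAs, 0 passed the test between the arteries at either time (limma with Benjamini-Hochberg adjustment over all miRNAs tested, threshold 0.05). All 4 were tested at 12 h and 3 at 48 h, where miR-142-5p was not detected often enough, and at each time 1 of them, miR-223, had an unadjusted p under 0.05. Among all miRNAs tested, 0.465% passed at 12 h (2 of 430) and 2.95% passed at 48 h (12 of 407). miR-223 came nearest: every left sample lay above every right sample at both times, with fitted differences of 0.70 on the log2 scale at 12 h and 1.95 at 48 h. For miR-142-3p, miR-142-5p and miR-150 the smallest adjusted p of a difference between the arteries was 0.497.

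**Figure D1:**
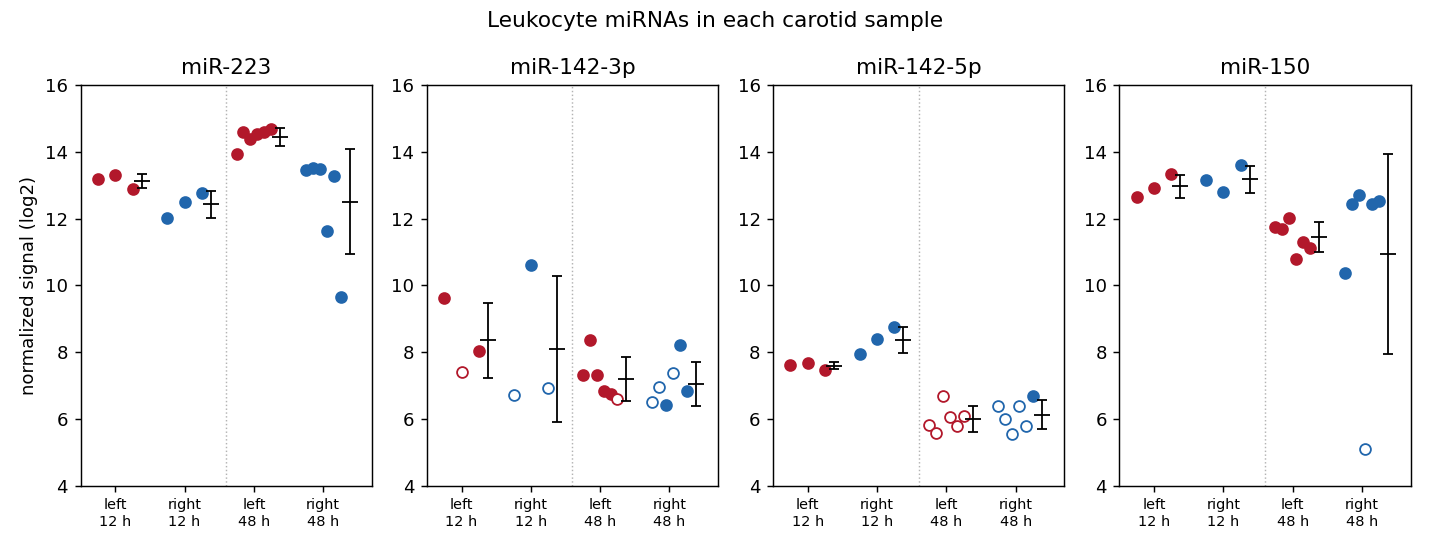
Normalized signal (log2, y axis) of each leukocyte miRNA in each sample of the left (red) and right (blue) carotid at 12 h and 48 h. Filled points are samples in which every array detected the miRNA and open points are the others; at 12 h each point is the mean of 2 repeat arrays. The black mark and bars are the mean and SD. Left and right points of miR-223 do not overlap at either time, and 1 right 48 h sample of miR-150 sits at 5.09, far below the other 5. Levels are normalized separately on each side of the dotted line.

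miR-223 was detected on all 24 arrays. At 12 h its raw signals in the left carotid were 8331 and 8394 in sample 1, 10917 and 10738 in sample 2, and 6842 and 8705 in sample 3, where each pair is 2 repeat arrays. In the right carotid they were 3936 and 4880, 5657 and 6605, and 7281 and 7552. Before normalization the arteries thus overlapped, since both arrays of right sample 3 exceeded the dimmer array of left sample 3.

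After normalization the left samples stood at 13.17, 13.31 and 12.88 and the right samples at 12.00, 12.48 and 12.78, so that the arteries no longer overlapped. The means were 13.12 ± 0.22 on the left and 12.42 ± 0.39 on the right (SD, n = 3 each). The fitted difference was 0.70 ± 0.23 SE on the log2 scale, which is 1.62-fold (95% confidence interval 1.09 to 2.41). It did not pass (limma adjusted p = 0.373, unadjusted p = 0.0243). At 12 h, 9.53% of all miRNAs tested had an unadjusted p under 0.05, and 6.05% had all left samples above the right ones. The two-sided exact permutation p was 0.1, the smallest that 3 against 3 samples allow.

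At 48 h the left carotid had the highest miR-223 signals of the series. The left raw signals were 20226 at the lowest, 25073.5 at the median and 28946 at the highest. The right raw signals were 1127 at the lowest, 10153.5 at the median and 12576 at the highest. Every left array therefore lay above every right array even before normalization. Right arrays 4 and 6, at 1371 and 1127, were far below the other right arrays, of which the dimmest stood at 10063.

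The normalized left samples lay between 13.94 and 14.67 and the right ones between 9.66 and 13.51, with means of 14.45 ± 0.27 and 12.50 ± 1.57 (SD, n = 6 each). The fitted difference was 1.95 ± 0.60 SE on the log2 scale, or 3.86-fold (95% confidence interval 1.57 to 9.53). It did not pass the threshold over all miRNAs (limma adjusted p = 0.107, unadjusted p = 0.00685), and 17.7% of all miRNAs tested had an unadjusted p under 0.05. Taken as a single value, its two-sided exact permutation p was 0.00216, the smallest that 6 against 6 samples allow, and 3.19% of the miRNAs tested had all left samples above the right ones. Without right sample 6, the lowest, the difference was 1.38 (limma adjusted p = 0.0502), and leaving out each sample in turn gave 1.38 to 2.15 with adjusted p between 0.0502 and 0.181. It was 1.78 without right sample 4. The arteries did not overlap with all samples, and leaving out samples cannot change that.

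The difference of miR-223 between the arteries was larger at 48 h than at 12 h by 1.25 ± 0.91 SE on the log2 scale, which did not pass (limma contrast over all samples, adjusted p = 0.688, 95% confidence interval -0.69 to 3.18). Without right sample 6 at 48 h it was 0.68 (adjusted p = 0.678), the lowest value when a sample is left out, and the highest was 1.46. Of the 474 miRNAs tested for such a contrast, 0.211% passed. A change of the left-right difference between 12 h and 48 h was therefore not shown for miR-223.

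**Figure D2:**
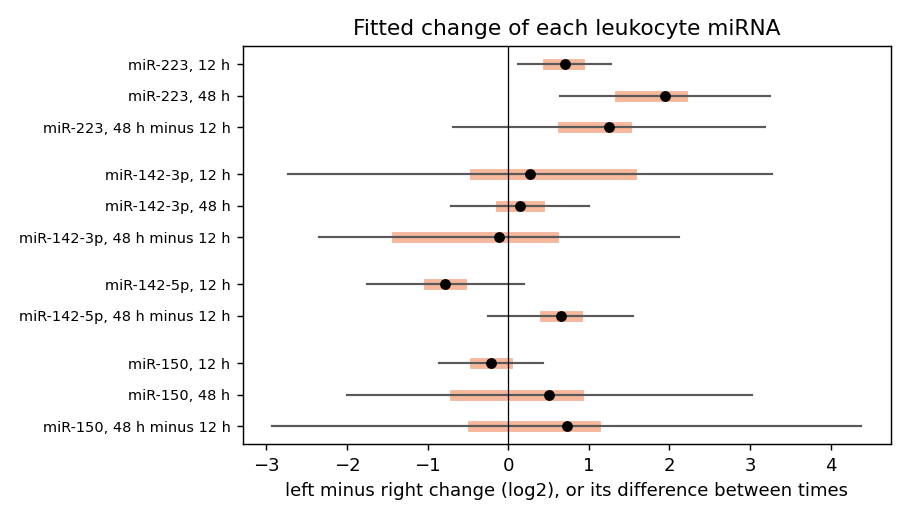
Fitted left minus right difference (log2, x axis) of each leukocyte miRNA at 12 h and 48 h, and the difference of that value between the times. Points are limma estimates, thin lines 95% confidence intervals and broad bars the range when each sample is left out in turn. The left-right intervals of miR-223 at 12 h and 48 h lie above 0, around 0.70 and 1.95, and all other intervals cross 0. miR-142-5p has no 48 h value because too few arrays detected it.

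miR-142-3p was near the detection limit. At 12 h, 5 of the 6 left arrays detected it and 2 of the 6 right ones did. At 48 h the numbers were 5 and 3. At 12 h the normalized left samples stood at 9.61, 7.41 and 8.03 and the right samples at 6.73, 10.60 and 6.92. Only right sample 2 was detected on the right, and it was the highest of all 6. Its repeat arrays read 1548 and 2034 in raw signal, against 166 to 337 on the other right arrays.

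The fitted difference of miR-142-3p at 12 h was 0.27 ± 1.22 SE on the log2 scale (limma adjusted p = 0.939), and without right sample 2 it was 1.52 ± 0.83 SE (adjusted p = 0.608). At 48 h the raw signals ran from 95 to 713 on the left, with a median of 187, and from 85 to 703 on the right, with a median of 108.5. The fitted difference was 0.15 ± 0.39 SE (limma adjusted p = 0.866, 95% confidence interval -0.70 to 1.01). The arteries overlapped at both times.

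miR-142-5p, the other arm of that hairpin, was dim but detected on all 12 arrays at 12 h. Its raw signals were 301 to 615 on the left (median 409.5) and 291 to 547 on the right (median 432). After normalization the left samples, at 7.61, 7.68 and 7.47, lay below the right samples, at 7.96, 8.40 and 8.75. The fitted difference was -0.78 ± 0.39 SE on the log2 scale (limma adjusted p = 0.497), the exact permutation p was 0.1, and left samples lay below all right samples in 13% of all miRNAs tested. With scaling of each array to its 75th percentile in place of background correction and quantile normalization it turned to 0.08 (adjusted p = 0.872), so no direction can be given.

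At 48 h no left array (0 of 6) and a single right array (1 of 6, array 6) detected miR-142-5p, at raw signals of 79 to 150 and 73 to 235. It was not tested there, since a test required detection on 3 arrays of a group. Within a sample, the log2 signal of miR-142-3p minus that of miR-142-5p ran from -0.27 to 2.00 in the left and from -1.82 to 2.20 in the right carotid at 12 h. The arteries overlapped, and no such value is given at 48 h, where the 5p arm was not above background on 11 of the 12 arrays. The difference between arms includes the 2 probes' own brightness, and it is read only between samples.

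miR-150, the lymphoid marker, was bright at 12 h and detected on all 12 arrays. The raw signals were 5682 to 12761 on the left (median 8000.5) and 7082 to 12583 on the right (median 10281). The normalized left samples stood at 12.65, 12.90 and 13.34 and the right samples at 13.16, 12.79 and 13.59. The arteries overlapped, and the fitted difference was -0.21 ± 0.26 SE on the log2 scale (limma adjusted p = 0.804, 95% confidence interval -0.86 to 0.43).

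At 48 h the left raw signals of miR-150 were 4659, 3235, 4134, 2177, 2635 and 1758 in samples 1 to 6. The right raw signals were 566, 4754, 5856, 36, 7409 and 7994. The left samples were close together, while the right samples held the highest and the lowest values of both arteries. Right array 4 did not detect miR-150, although its raw signal of miR-223, 1371, was detected.

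The fitted difference of miR-150 at 48 h was 0.51 ± 1.15 SE on the log2 scale (limma adjusted p = 0.857), and its sign rested on right sample 4. Without that sample it was -0.66 (adjusted p = 0.428). Without right samples 1 and 4, the 2 arrays with the fewest detected probes, it was -1.08 (adjusted p = 0.0638), and without right samples 1, 2 and 4 it was -1.11 (adjusted p = 0.101). Without right samples 3 and 5 it went the other way, to 1.33 (adjusted p = 0.564). All 3 sets of samples were chosen after the data were seen. Of the 6 right samples, 4 lay above all left samples, and 2, samples 1 and 4, lay below them. Leaving out samples 1 and 4 therefore fixes a negative sign in advance. The left-right difference at 48 h minus that at 12 h was 0.73 ± 1.72 SE (limma adjusted p = 0.93), or -0.44 without right sample 4 and 1.55 without right samples 3 and 5. miR-150*, the opposite strand of the hairpin, was detected on 1 of the 24 arrays.

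**Figure D3:**
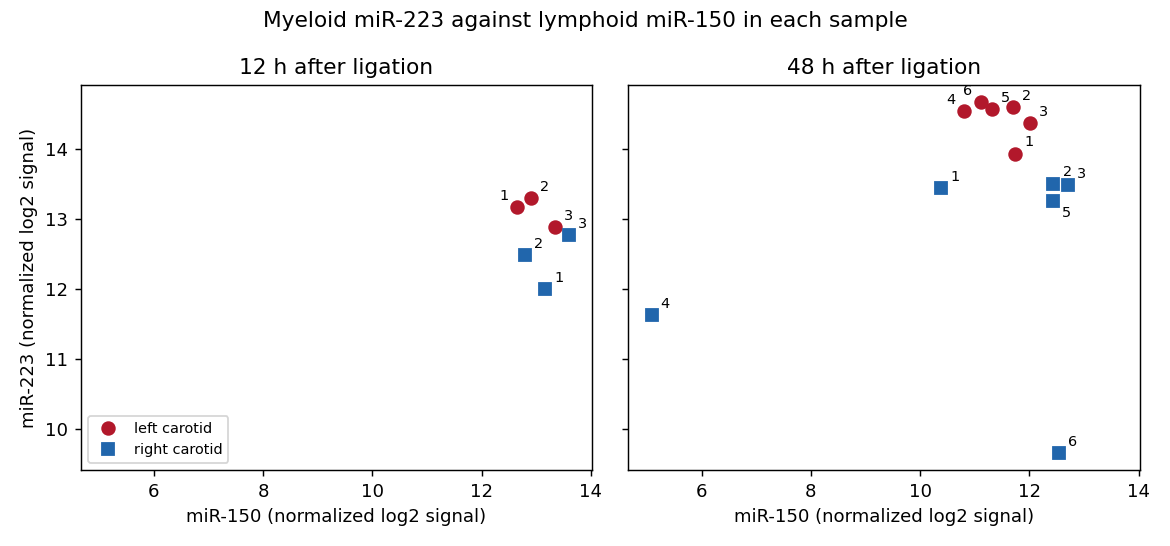
miR-223 (y axis) against miR-150 (x axis), both in normalized log2 signal, in each left (red circles) and right (blue squares) sample at 12 h and 48 h, with sample numbers. At 48 h the left samples form a compact group at high miR-223, while right samples 4 and 6 stand apart, sample 4 through low miR-150 (5.09) and sample 6 through low miR-223 (9.66). Each panel is normalized on its own.

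Myeloid against lymphoid signal was followed within each sample as the log2 signal of miR-223 minus that of miR-150. It includes the brightness of both probes, so it is read only between samples. At 12 h it stood at 0.15 ± 0.53 in the left and -0.76 ± 0.43 in the right carotid (SD, n = 3 each), with ranges of -0.46 to 0.52 and -1.16 to -0.31. At 48 h it stood at 3.01 ± 0.63 in the left and 1.57 ± 3.10 in the right carotid (SD, n = 6 each), with ranges of 2.21 to 3.75 and -2.87 to 6.54. The difference between the arteries was 0.91 at 12 h (0.72 to 1.22 when a sample is left out) and 1.44 at 48 h. The latter was 2.43 without right sample 4 and 0.55 without right sample 6, the highest and lowest values when a sample is left out. The arteries overlapped at both times, and at 48 h the right samples spread far more widely than the left ones.

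The 2 right samples at the ends of that range were those already named. Sample 4, with miR-150 undetected, gave the highest value, and sample 6, with the lowest miR-223, gave the lowest. Across the 12 samples of 48 h Pearson's r between miR-223 and miR-150 was 0.21 (Spearman's rho -0.24), a description over samples that share arrays and normalization. miR-142-5p, detected on 1 of these arrays, was left out of such values.

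Between the times, miR-223 and miR-150 stood in opposite directions in the left carotid. These values come from all arrays normalized together, and since each time was deposited as its own table, time and table cannot be told apart and no test was made. In the left carotid miR-223 was 13.12 ± 0.19 at 12 h (n = 3) and 14.37 ± 0.20 at 48 h (n = 6), a difference of 1.25 with no overlap (SD). In the same artery miR-150 was 12.98 ± 0.32 and 11.48 ± 0.41, a difference of -1.50 with no overlap. Among 458 miRNAs detected in that artery, the 48 h samples lay above all 12 h samples in 22.7% and below them in 21.4%, so that either pattern was common on this array. The endothelial marker shifted as well, here in raw signals that were not normalized. Both miR-126 arms, which mark endothelium, summed to 41636 to 47249 at 12 h and 5560 to 24491 at 48 h in the left carotid. In the right they summed to 42630 to 48267 and 1404 to 27882. Median sums of other wall markers were higher at 48 h. For smooth muscle they were 28194 and 33095 in the left carotid and 29412.5 and 35197.5 in the right, with overlapping ranges. For fibroblasts they were 25256 and 37712 in the left and 25199.5 and 36033 in the right, without overlap. The part of these shifts in the time differences of the leukocyte miRNAs was not tested.

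In the right carotid miR-223 stood at 12.44 ± 0.39 and 12.57 ± 1.50, which overlapped, and the difference was 0.13. It was -0.25 with scaling to the 75th percentile, 0.66 without right sample 6 at 48 h, 0.31 without right sample 4 and -0.08 without right sample 1 at 12 h, so no direction can be given. miR-150 stood at 13.18 ± 0.37 and 11.02 ± 2.80, a difference of -2.16 without overlap, or -1.06 without right sample 4 at 48 h. Of the 430 miRNAs of that artery 14.2% lay below without overlap. miR-142-3p differed by 0.02 in the left and 0.08 in the right artery, and miR-142-5p by -0.32 and -0.99, with overlap in each. For those dim miRNAs the value depends on the scaling, as it was -1.66 and -1.57 for miR-142-3p with scaling to the 75th percentile.

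On this joint scale miR-223 was highest in the left carotid at 48 h, followed by the left at 12 h, the right at 48 h and the right at 12 h. Its left 48 h samples overlapped those of no other group, and the other neighbours in the order overlapped, with no settled order between the right groups. The order of the left at 12 h and the right at 48 h was not settled either. Right 48 h samples 1, 2 and 3, at 13.49, 13.55 and 13.53, lay above every left 12 h sample. Right 48 h samples 4 and 6, at 11.64 and 9.91, lay below them all. Without right sample 6 the right 48 h mean was 13.10, against 13.12 in the left at 12 h. miR-150 was highest in the right carotid at 12 h, followed by the left at 12 h, the left at 48 h and the right at 48 h. Of its neighbours, only left at 12 h and left at 48 h did not overlap. The last place rests on right sample 4, where miR-150 was not detected: without it the right 48 h mean was 12.12, above the left 48 h mean of 11.48. For miR-142-3p all groups overlapped. miR-142-5p was given no order, since 1 of the 12 arrays of 48 h detected it.

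Erythroid and platelet-rich miRNAs were measured beside the members because blood left in the vessel carries both. miR-486, a red cell miRNA, had normalized levels of 14.49 ± 0.07 on the left and 14.46 ± 0.15 on the right at 48 h (SD, n = 6), with a fitted difference of 0.03 (limma adjusted p = 0.857). miR-451, a further red cell miRNA, stood at 11.18 ± 2.31 and 12.81 ± 1.40, a difference of -1.63 (adjusted p = 0.407). At 12 h their differences were 0.65 (adjusted p = 0.797) and 0.20 (adjusted p = 0.876). The summed raw signal of the 3 erythroid probes at 48 h was 24074 to 43670 on the left and 22260 to 39325 on the right. At 12 h it was 4011 to 7514 and 1387 to 7839, so that the arteries overlapped at each time while both were brighter at 48 h. The probe named miR-144, the third of them, was detected on 0 arrays. A further probe, miR-144:9.1, was detected on all 6 arrays of each group, but it was not in the list or in these sums. Of the platelet and plasma list, 0 of 5 tested members passed at 12 h, where miR-223 was the only 1 above 0 and 4 lay below. At 48 h 0 of 6 tested members passed, and 5 of the 6, miR-223 included, lay above 0. Beside miR-223 itself, miR-126-3p, which endothelium also makes, stood at 1.86 (limma adjusted p = 0.272), miR-197 at 0.26, miR-24 at 0.02, miR-191 at 0.01 and miR-22 at -0.23. The part of red cells, platelets or free plasma in the miR-223 values was not tested.

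**Figure D4:**
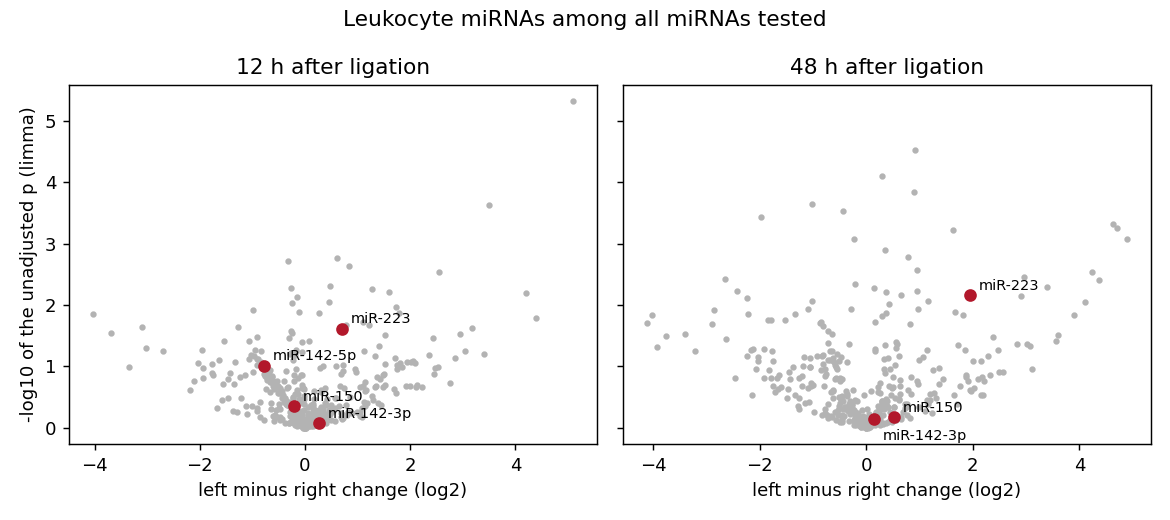
Left minus right difference (log2, x axis) against -log10 of the unadjusted limma p (y axis) for all 430 miRNAs tested at 12 h and 407 tested at 48 h (grey), with the leukocyte miRNAs in red. miR-223 lies on the left-high side at both times, below the miRNAs with the smallest p; miR-142-3p and miR-150 lie near the base, with miR-142-5p shown at 12 h only.

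Other miRNAs of myeloid cells had differences of either sign. Of 9 myeloid miRNAs on the array, the members miR-223, miR-142-3p and miR-142-5p included, 7 were tested at each time and 0 passed. At 12 h 3 of the 7 lay above 0 and at 48 h 4 did. The median difference was -0.14 at 12 h and 0.02 at 48 h, against -0.05 and -0.00 over all miRNAs tested. The largest difference of the list at 12 h was that of miR-511, a macrophage miRNA encoded in the mannose receptor gene. Its raw signal ran from 3971 to 5791 on the left and from 1202 to 3503 on the right, and the fitted difference was 1.27 ± 0.30 SE (limma adjusted p = 0.251). At 48 h miR-511 stood at 0.40 ± 0.49 SE (adjusted p = 0.72), and miR-223 had the largest difference of the list.

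Of 8 lymphoid miRNAs on the array, miR-150 included, 8 were tested at 12 h and 7 at 48 h, and 0 passed at either time. The differences were of either sign, with 4 above and 4 below 0 at 12 h and 4 above and 3 below at 48 h. The median differences were 0.03 and 0.29. miR-342-5p had the largest differences, 2.11 ± 1.52 SE at 12 h (limma adjusted p = 0.582) and 2.15 ± 1.94 SE at 48 h (adjusted p = 0.584). It was detected on 4 left and 2 right arrays at each time. miR-342-3p, the other arm of that hairpin and also made by lymphocytes, had raw signals of 6193 to 14288 on the left and 858 to 9560 on the right at 48 h, and differed by 1.15 ± 0.37 SE (adjusted p = 0.117).

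Of 9 miRNAs induced in inflammation, 8 were tested at 12 h, of which 0 passed, and 7 at 48 h, of which 1 was higher and 0 were lower, where 1.97% of all miRNAs tested were higher and 0.983% lower. Differences above 0 were found in 4 of the 8 at 12 h and in 3 of the 7 at 48 h, with medians of -0.02 and -0.24. The one that passed at 48 h was miR-146b, which restrains signalling from Toll-like receptors. It was detected on 5 left and 1 right array at 48 h, with medians of 3208.5 and 87.5 in raw signal and a fitted difference of 4.63 ± 0.97 SE (limma adjusted p = 0.0276). With the replicate block, or without left sample 5, 0 miRNAs were called higher at 48 h, so this call was lost under both. Left array 1, at 138, lay within the range of the right arrays. miR-155, which activated macrophages and lymphocytes make, had raw signals of 2932 to 6097 on the left and 7296 to 8343 on the right at 12 h, a difference of -0.99 ± 0.28 SE (adjusted p = 0.297). At 48 h it was detected on 0 left arrays and on 1 right array. miR-9 had the largest difference of the list at 12 h, 4.20 ± 1.01 SE (adjusted p = 0.251), and was detected there on 6 left and 0 right arrays.

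The miRNAs most like each member across the 12 samples of 48 h were found by Pearson's r among 380 miRNAs detected on at least 6 of the 12 arrays. These are descriptions over samples that share arrays, normalization and the split into arteries, and they carry no p. For miR-223 they were miR-17, with r = 0.83, miR-17*, with r = 0.83, and miR-324-3p, with r = 0.79. Without right sample 6 the r of miR-17 was 0.35, while that of miR-324-3p was 0.90. Over the 6 samples of 12 h the same 3 pairs had r of 0.14, -0.01 and -0.17.

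For miR-150 the nearest were let-7a, with r = 0.96, miR-140*, with r = 0.94, and let-7f, with r = 0.88. Without right sample 4 these were 0.69, 0.35 and -0.10, and on that array let-7a read 586 in raw signal while no other right array was under 11506. For miR-142-3p they were miR-338-5p, miR-338-3p and miR-592, with r of 0.73, 0.70 and 0.70, which were -0.29, -0.32 and -0.27 at 12 h. Without left sample 2 the 48 h values were 0.77, 0.57 and 0.58, and miR-142-3p was detected on 8 of the 12 arrays. At 12 h let-7a, miR-140* and let-7f had r of -0.24, 0.52 and -0.30 to miR-150. miR-142-5p was detected on too few 48 h arrays to be ranked.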

How the data were processed

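The deposited tables, 1 per time, list for 655 probes the mean bead intensity on each array, not normalized, with its detection p-value. GenomeStudio 2010.2 is the tool that the submitters' processing notes name. Whether the authors subtracted background is not stated. Columns name artery and number but not time. The time was settled by rank correlation with the authors' processed intensity values, where 24 of 24 columns matched their own sample best. Arrays of a group with rank correlation above 0.98 were averaged as repeats, which applied at 12 h only (arrays 1 and 4, 2 and 5, 3 and 6). The fits had been laid out with this rule.

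Signals were normalized with neqc (limma 3.58.1, R 4.3.3; offset 16) within each time. Probes with detection p under 0.05 on at least 3 arrays of a group were tested (lmFit, eBayes with intensity trend, two-sided, Benjamini-Hochberg, threshold 0.05). The fit was also run on simulated data with normal noise and planted changes larger than the left-right differences of the members. That run does not bear on changes of the members' size or on single outlying samples. Single values were also tested by exact permutation. The labels do not say whether numbered samples are separate animals, so the p-values cover only sample-to-sample spread, part of which may be technical. Slide and scan were not examined.

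The members and lists were chosen with earlier results of these data known. Named miRNAs are the members, list members that passed or had the largest difference of their list, the 3 miRNAs most like each member at 48 h, and blood and wall markers. miR-155, miR-342-3p, the platelet list, miR-150* and the let-7a signal on 1 array were named after their values were seen. Lists of fibroblast and striated muscle markers had 0 members past the threshold at either time, as had the endothelial and smooth muscle lists. The 2 smooth muscle miRNAs tested lay below 0 at both times. At 48 h the left-right difference was -0.21 for miR-145 (limma adjusted p = 0.0992) and -0.31 for miR-143 (adjusted p = 0.262). Their part in the miR-223 values was not tested. The only liver marker, miR-122, was detected on too few arrays to be tested. Same-numbered samples of the arteries deviated together weakly or not at all (correlations 0.02 to 0.06 at 12 h and -0.17 to 0.02 at 48 h). The numbers were not taken as pairs, although at 12 h same-numbered samples were each other's best match. Alternatives were other scalings, offsets, filters and trends, the authors' processed values, every array as a sample, a replicate block and leaving out samples.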

Additional observations from a re-analysis of the deposited data

Results flagged for a closer look

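The level of miR-150 in the right carotid at 48 h was flagged because sample 4, at 5.09, lay far below the other 5, with a gap to the nearest of 0.695 of the whole range, where 0.625 is the 95% limit for 6 samples. By chance about 1 in 20 groups is flagged in this way. The same array detected 335 of 655 probes, the fewest of the series, and read 586 for let-7a, against 11506 on the next lowest right array. Their part in the value was not tested.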

How the results depend on the processing

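The left-right differences of miR-223 kept their direction under every setting tried. Their adjusted p kept its side of the threshold except at 12 h with every array counted as a sample (0.70, adjusted p = 0.0126). The exact permutation p at 48 h (0.00216 for 1.95) is that of a single value. It is not adjusted over all miRNAs, so it is not set against that threshold. With the replicate block the miR-223 differences at 12 h and 48 h were 0.70 and 1.95 (adjusted p = 0.426 and 0.177). Scaling to the 75th percentile gave 2.20 at 48 h, where the median of all miRNAs moved to 0.29 (0.12 at 12 h). Leaving out a sample gave 0.49 to 0.88 at 12 h and 1.38 to 2.15 at 48 h, and 0.68 to 1.46 for the difference between times. For miR-142-5p at 12 h, every array as a sample gave -0.78 (adjusted p = 0.0449) and 75th percentile scaling 0.076, with -0.017 for its difference between times. Leaving out a sample moved miR-142-3p between -0.41 and 1.52 at 12 h and -0.084 and 0.38 at 48 h, miR-150 at 48 h between -0.66 and 0.87, and their differences between times between -1.37 and 0.56 and between -0.44 and 1.08. miR-150 at 48 h was -1.08 without right samples 1 and 4 and -1.11 without 1, 2 and 4, with -0.87 and -0.90 for its difference between times. That of miR-142-3p was 0.014 with no background correction and 0.019 without right samples 3 and 5. With 75th percentile scaling the change from 12 h to 48 h was -1.66 (left) and -1.57 (right) for miR-142-3p and -2.11 and -2.04 for miR-142-5p, and leaving out a sample moved miR-142-3p in the right artery between -0.65 and 1.43. The cause of these shifts was not tested. The count of all miRNAs that passed varied more: the replicate block left 0 at either time. Every array as a sample gave 35 higher and 37 lower at 12 h, no detection filter 15 and 10 at 48 h, no trend 5 and 2 at 48 h, and leaving out a sample 0 to 10 higher and 0 to 6 lower at 48 h. The same-numbered samples at 12 h correlated best with each other in 3 of 3 numbers, and at 48 h in 0 of 6.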
